A study of Saccharomyces cerevisiae with 18 samples.

Results

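The genes described here encode the proteasome of Saccharomyces cerevisiae and its transcriptional activator: 14 genes of the core particle (PRE1 to PRE10, PUP1 to PUP3 and SCL1), 10 of the base and 9 of the lid of the regulatory particle (RPT1 to RPT6, the RPN subunits and SEM1), the base chaperone gene RPN14 (YGL004C) and the activator gene RPN4 (YDL020C). They were taken by systematic identifier, 35 of the 7126 features in the deposited tables, and no gene was picked by its own values. The set itself was chosen with earlier results of these data known. All 35 had a mean of at least 10 normalized counts and were tested, among 5825 such features.

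The study measured poly(A) RNA by sequencing in 18 libraries of 6 strains, with 3 biological replicates each. Every strain was BY4741 with a tag on 1 of the 2 AAA+ ATPases of the R2TP complex, Rvb1 or Rvb2, and in each tagged background there was a wild type, a PIH1 deletion and a TAH1 deletion. PIH1 and TAH1 encode the non-ATPase subunits of that chaperone complex. All strains carried a tag, so no untagged strain serves as a baseline, and the labels do not say which tag or marker was used or whether more than 1 clone was grown; deletion, clone and tagged background therefore cannot be told apart within a strain. Cells were grown with shaking in YPD medium at 30 °C. For replicate 1 of the Rvb2-tagged wild type, the source field names Rvb1 while the title names Rvb2; the title was followed.

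The proteasome degrades ubiquitin-tagged proteins. Its core particle is a barrel of stacked alpha and beta rings with the proteolytic sites inside, the base is a ring of ATPases that unfolds substrates and feeds them into the barrel, and the lid removes ubiquitin chains. In yeast most of these genes share a promoter element bound by Rpn4, a short-lived zinc-finger activator that the proteasome itself degrades, so that supply of the particle is tied to its activity.

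The deleted genes were as the labels state. PIH1 fell from 157 ± 9.24 normalized counts (SD, n = 3) to 6 ± 3 in the Rvb1-tagged deletion and from 140 ± 17.9 to 3 ± 2 in the Rvb2-tagged one. TAH1 fell from 175 ± 16.7 to 2.33 ± 0.577 in the Rvb1-tagged deletion, and from 185 ± 14.2 to 0 in all 3 Rvb2-tagged deletion libraries. The libraries summed to between 4829249 and 5412654 normalized counts. Replicate 2 of the Rvb1-tagged wild type lay farthest from its group, at a root mean square log2 distance of 0.404 against 0.155 to 0.306 in the other 17 libraries, and 26 of the 33 subunit genes had their lowest value of that group in it.

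The element bound by Rpn4 is the sequence GGTGGCAAA. It was searched on both strands in a window from 250 bases before to 50 bases after the start codon of every gene. It was present in 27 of the 35 members (77.1%), 12 of the core, 8 of the base and 7 of the lid, against 72 of 6020 promoters in all (1.2%). In the members it lay 84 to 183 bases before the start codon, with a median of 120, on the strand of the gene in 19 and on the opposite strand in 8. The related motif GGTGGCGAA was found in 3 further members, RPN10, RPN13 and SEM1, and in 27 promoters in all (0.449%). The shared core GGTGGC, which both longer motifs contain, was in 30 members and in 416 promoters (6.91%).

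The other 5 members, PRE5, PUP1, RPN8, RPN14 and RPN4, held none of these. In 3 of them, PRE5, PUP1 and RPN8, the windows contained the related AGTGGCAAA, 147 to 172 bases before the start codon; this motif was chosen after the windows had been read, and occurs in 43 of the 6020 promoters (0.714%). For RPN14 and RPN4 the absence says only that these letters are not in this window. A match describes the sequence and is not evidence of binding.

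The sequences below are those of members with the largest changes in the PIH1 deletions, members on chromosome XVI and examples of the related motifs. Each has 20 bases on each side of the motif in capitals, written 5′ to 3′ in the direction of the gene. They are from the RefSeq genome whose sequence is that of the sacCer3 build. RPN9, PRE5 and RPN8 rose most in the Rvb1-tagged PIH1 deletion, RPT2, PRE1 and PRE5 fell most in the Rvb2-tagged one, and PRE2 and RPN7 are on chromosome XVI. In RPN7 and RPN10 the capitals are the motif on the opposite strand.
RPN9 (YDR427W), chrIV:1322076-1322124, plus strand: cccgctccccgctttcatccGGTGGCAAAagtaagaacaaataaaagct
RPT2 (YDL007W), chrIV:437896-437944, plus strand: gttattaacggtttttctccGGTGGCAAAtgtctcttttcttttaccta
PRE1 (YER012W), chrV:177673-177721, plus strand: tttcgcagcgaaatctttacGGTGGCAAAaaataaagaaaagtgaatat
PRE2 (YPR103W), chrXVI:732174-732222, plus strand: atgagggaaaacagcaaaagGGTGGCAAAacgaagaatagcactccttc
RPN7 (YPR108W), chrXVI:742280-742328, plus strand: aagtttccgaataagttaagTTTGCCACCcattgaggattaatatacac
RPN10 (YHR200W), chrVIII:498958-499006, plus strand: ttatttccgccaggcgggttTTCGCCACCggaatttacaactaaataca
SEM1 (YDR363W-A), chrIV:1201997-1202045, plus strand: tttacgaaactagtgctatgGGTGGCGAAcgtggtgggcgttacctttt
PRE5 (YMR314W), chrXIII:901542-901590, plus strand: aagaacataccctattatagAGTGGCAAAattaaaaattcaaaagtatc
PUP1 (YOR157C), chrXV:631881-631929, minus strand: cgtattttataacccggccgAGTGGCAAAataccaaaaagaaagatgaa
RPN8 (YOR261C), chrXV:817075-817123, minus strand: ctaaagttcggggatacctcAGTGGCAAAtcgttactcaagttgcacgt

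Levels were compared between genes on the FPKM scale, which divides by transcript length. PRE2, the beta subunit with the chymotrypsin-like site, had the highest mean of all members in the Rvb1-tagged wild type, at 475 ± 16.8 FPKM (SD, n = 3), ahead of the alpha ring gene PRE6 at 455 ± 29.8. In the Rvb2-tagged wild type the order was the other way, with PRE6 at 510 ± 19.7 and PRE2 at 487 ± 23.0, and in neither strain did these neighbours differ beyond their spread. RPN14, a chaperone of base assembly rather than a subunit of the finished particle, had the lowest, at 35 and 34, and RPN4 came next, at 96 and 97.

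The core, base and lid followed the same order over the extremes of the 6 strains. The median FPKM over the 14 core genes was highest in the Rvb1-tagged PIH1 deletion, at 471 ± 16.8 (SD over 3 libraries), and lowest in the Rvb2-tagged PIH1 deletion, at 291 ± 11.8. Between them lay the Rvb2-tagged wild type at 403 ± 21.0, the Rvb2-tagged TAH1 deletion at 385 ± 15.8, the Rvb1-tagged wild type at 367 ± 18.5 and the Rvb1-tagged TAH1 deletion at 340 ± 13.5. Neighbours among these 4 strains were separated by little more than their SDs, and the PIH1 deletions stood outside them by more than 2 SDs of either neighbour.

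For the 10 base genes the corresponding median was 306 ± 13.1 in the Rvb1-tagged and 206 ± 2.25 in the Rvb2-tagged PIH1 deletion, against 245 ± 11.3 and 265 ± 7.01 in the wild types. For the 9 lid genes it was 265 ± 13.6 and 191 ± 5.29 in the PIH1 deletions, against 219 ± 10 and 234 ± 22.6 in the wild types. In all 3 classes the Rvb1-tagged PIH1 deletion was the highest strain and the Rvb2-tagged PIH1 deletion the lowest.

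**Figure D1:**
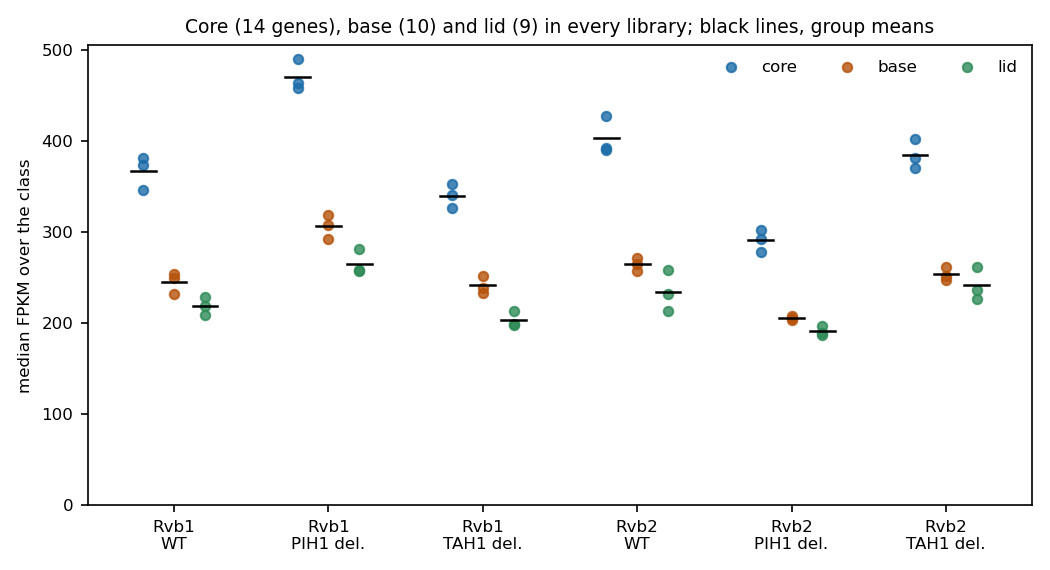
Median FPKM over the genes of the core (14), base (10) and lid (9) in every library of the 6 strains, with black lines at the group means. The Rvb1-tagged PIH1 deletion is highest in all 3 classes (core mean 471) and the Rvb2-tagged PIH1 deletion lowest (core mean 291).

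The first question was whether proteasome transcripts differed between the Rvb1-tagged PIH1 deletion and its wild type. They did, upward, in limma's moderated test over all 5825 features, at an adjusted p below 0.05. All 14 core genes, 9 of the 10 base genes and 7 of the 9 lid genes rose. That is 30 of the 35 members higher, where 19.2% of all tested genes were called higher. RPN14 and RPN4 were lower, where 18.7% of all genes were called lower, and RPN1, RPN7 and SEM1 did not pass. The median log2 change was 0.29 over the core, 0.22 over the base and 0.28 over the lid, against 0.01 over all tested genes. The rise was thus small for each gene and general over the particle. In a bulk culture, a change in the share of cells that hold a transcript and a change in its amount per cell cannot be told apart.

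RPN9, a structural lid subunit, stood at 1025, 1010 and 985 normalized counts in the 3 wild type libraries and at 1571, 1485 and 1444 in the deletion. Its groups did not overlap, and the log2 change of 0.57 ± 0.06 (SE, adjusted p = 3.1e-06) was the largest of the members. PRE5, an alpha ring subunit of the core, stood at 1353, 1139 and 1351 in the wild type and at 1921, 1728 and 1858 in the deletion. That is a rise of 0.52 ± 0.07 on the log2 scale (adjusted p = 3.2e-05), again without overlap. RPN8, the lid partner of the deubiquitinase Rpn11, stood at 1480, 1359 and 1369 in the wild type and at 2075, 1783 and 1831 in the deletion. Its log2 change was 0.43 ± 0.06 (adjusted p = 7.3e-05), with every deletion library above every wild type library.

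Genes of the proteolytic sites moved with the rest of the barrel. PRE2 rose by 0.30 ± 0.05 on the log2 scale (adjusted p = 0.00027). PRE3, which carries the caspase-like site, rose from 1055 ± 107 to 1294 ± 18.7 normalized counts, and PUP1, which carries the trypsin-like site, rose from 1144 ± 56.4 to 1330 ± 75.1. In the base, the ATPase gene RPT6 rose from 1556 ± 95.9 to 1961 ± 70.9 and the ubiquitin receptor gene RPN13 from 573 ± 17.9 to 721 ± 37.1. The 3 subunit genes that did not pass had estimates above 0, namely 0.14 ± 0.06 for the scaffold gene RPN1, 0.09 ± 0.05 for the lid gene RPN7 (-0.028 after quantile normalization) and 0.11 ± 0.09 for SEM1, a very small lid subunit.

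RPN14 went the other way. It stood at 234, 210 and 227 normalized counts in the wild type and at 182, 168 and 185 in the deletion, without overlap, a log2 change of -0.32 ± 0.07 (adjusted p = 0.0026). RPN4 stood at 851, 737 and 773 in the wild type and at 692, 635 and 654 in the deletion, again without overlap, and its log2 change was -0.25 ± 0.07 (adjusted p = 0.014). The transcript of the activator was therefore lower in the strain in which 30 genes of the particle were higher. RPN4 protein was not measured. The RPN4 call did not hold without wild type replicate 1 (adjusted p = 0.0776) or without deletion replicate 2 (adjusted p = 0.0546).

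Every deletion library lay above every wild type library for 31 members and below it for 2, where 20.8% and 21.9% of all tested genes did so. The number of members that rose was lower under other fits. With only the 6 libraries of this comparison in the fit, 18 rose and 1 fell (RPN14). After quantile normalization 19 rose. In these fits 21.9% and 35.6% of all tested genes were called in either direction.

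**Figure D2:**
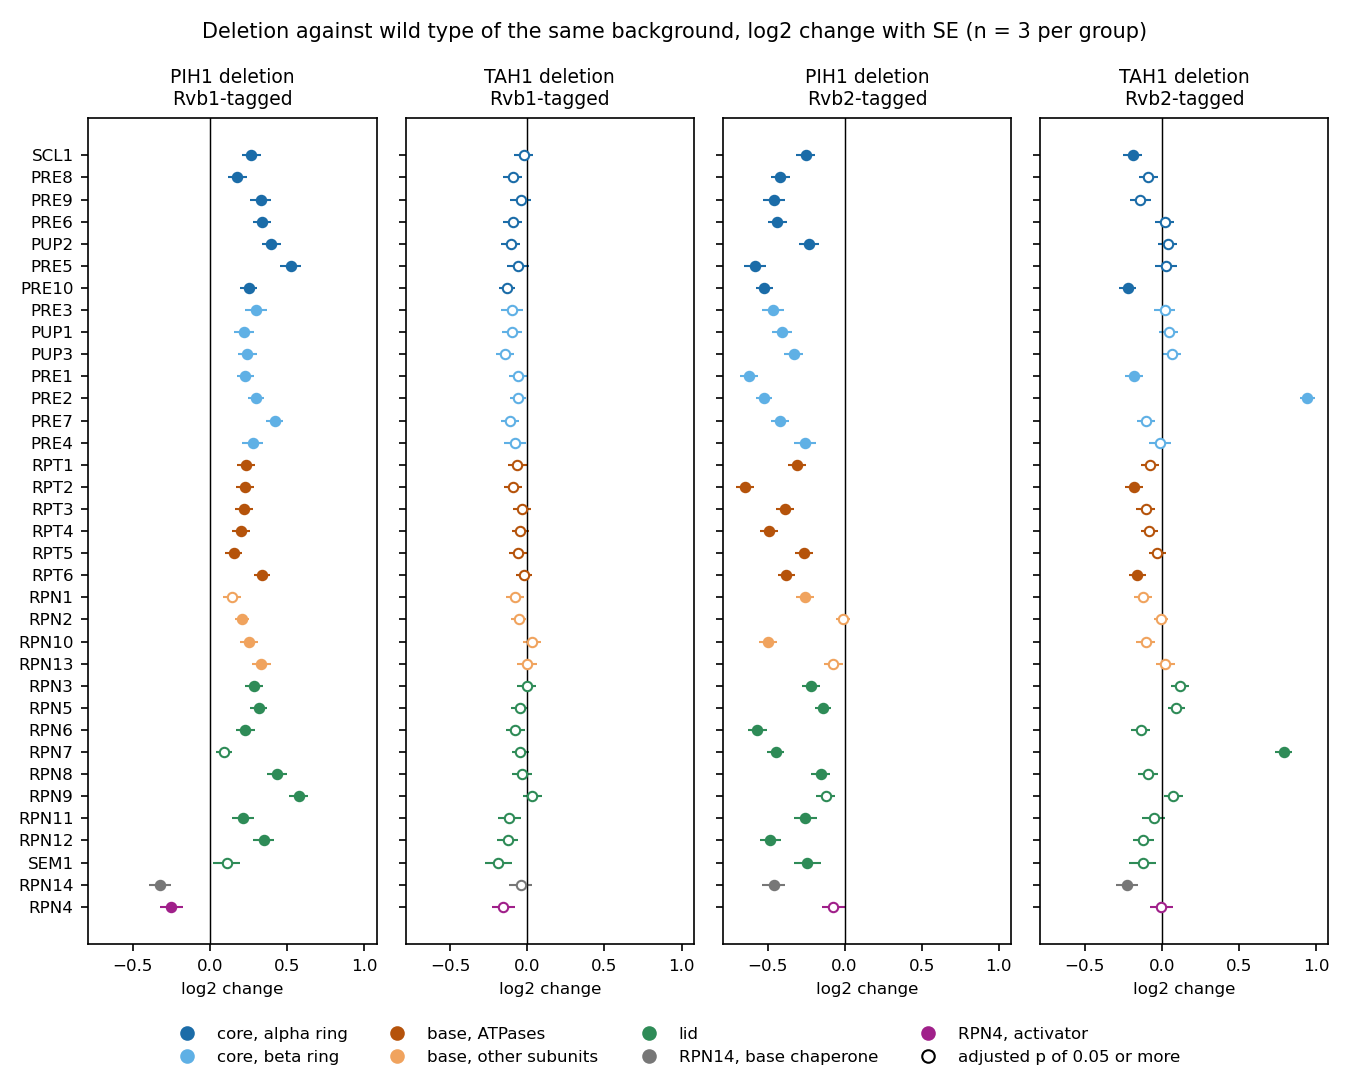
Log2 change with SE of each of the 35 members in the 4 deletions, each against the wild type of the same tagged background (n = 3 per group); filled points have an adjusted p below 0.05. Most points lie above 0 in the Rvb1-tagged PIH1 deletion (30 called) and below 0 in the Rvb2-tagged PIH1 deletion (31 called).

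The same deletion in the Rvb2-tagged strain gave the opposite direction. No member rose and 31 of the 35 fell, where 35.2% of all tested genes were called higher and 34.4% lower: all 14 core genes, 8 of the 10 base genes, 8 of the 9 lid genes and RPN14. The median log2 change was -0.43 over the core, -0.34 over the base and -0.24 over the lid, against 0.01 over all genes. For 31 members every deletion library lay below every wild type library, where 35.5% of all tested genes did so. The 4 members that did not pass were the scaffold gene RPN2, the ubiquitin receptor gene RPN13, RPN9 and RPN4.

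RPT2, an ATPase of the base that helps to open the gate of the core, stood at 2049, 2177 and 2091 normalized counts in the Rvb2-tagged wild type and at 1298, 1371 and 1364 in the deletion. The groups were far apart, with a log2 change of -0.65 ± 0.06 (adjusted p = 4.9e-08). PRE1, a beta ring subunit, stood at 1355, 1323 and 1267 in the wild type and at 878, 821 and 865 in the deletion. It fell by 0.62 on the log2 scale (SE 0.06, adjusted p = 6.4e-08), without overlap. PRE5 stood at 1490, 1387 and 1318 in the wild type and at 922, 910 and 964 in the deletion, a log2 change of -0.58 ± 0.07 (adjusted p = 1.3e-06), so that the same gene was among the largest changes in both backgrounds with opposite sign.

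All 3 genes of the proteolytic sites fell. PRE2 stood at 2057, 2257 and 2163 normalized counts in the wild type and at 1481, 1486 and 1539 in the deletion, a log2 change of -0.52 ± 0.05 (adjusted p = 1.1e-07). PRE3 fell from 1145 ± 63.8 to 831 ± 60.1, and PUP1 from 1261 ± 78.9 to 952 ± 50.9. In the lid, RPN6, which braces the lid against the core, fell from 1952 ± 55.2 to 1319 ± 64.5, and the gene of the deubiquitinase, RPN11, had a log2 change of -0.26 ± 0.07. In the base, the ubiquitin receptor gene RPN10 fell from 1426 ± 104 to 1009 ± 21.4.

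RPN2 (YIL075C) stood at 2836, 2884 and 2809 normalized counts in the Rvb2-tagged wild type and at 2836, 2781 and 2849 in the deletion. These groups overlapped, with a log2 change of -0.01 ± 0.05 (adjusted p = 0.85). RPN9 stood at 1157, 1051 and 1007 in the wild type and at 957, 963 and 1027 in the deletion, which also overlapped (log2 change -0.12 ± 0.06, adjusted p = 0.084). RPN14 fell in this background as well, from 225, 222 and 212 to 161, 146 and 172 (log2 change -0.46 ± 0.07, adjusted p = 2.7e-05). RPN4 stood at 720, 784 and 879 in the wild type and at 732, 748 and 778 in the deletion, with a log2 change of -0.07 ± 0.07 (adjusted p = 0.39): its 3 deletion values lay inside the range of the wild type.

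**Figure D3:**
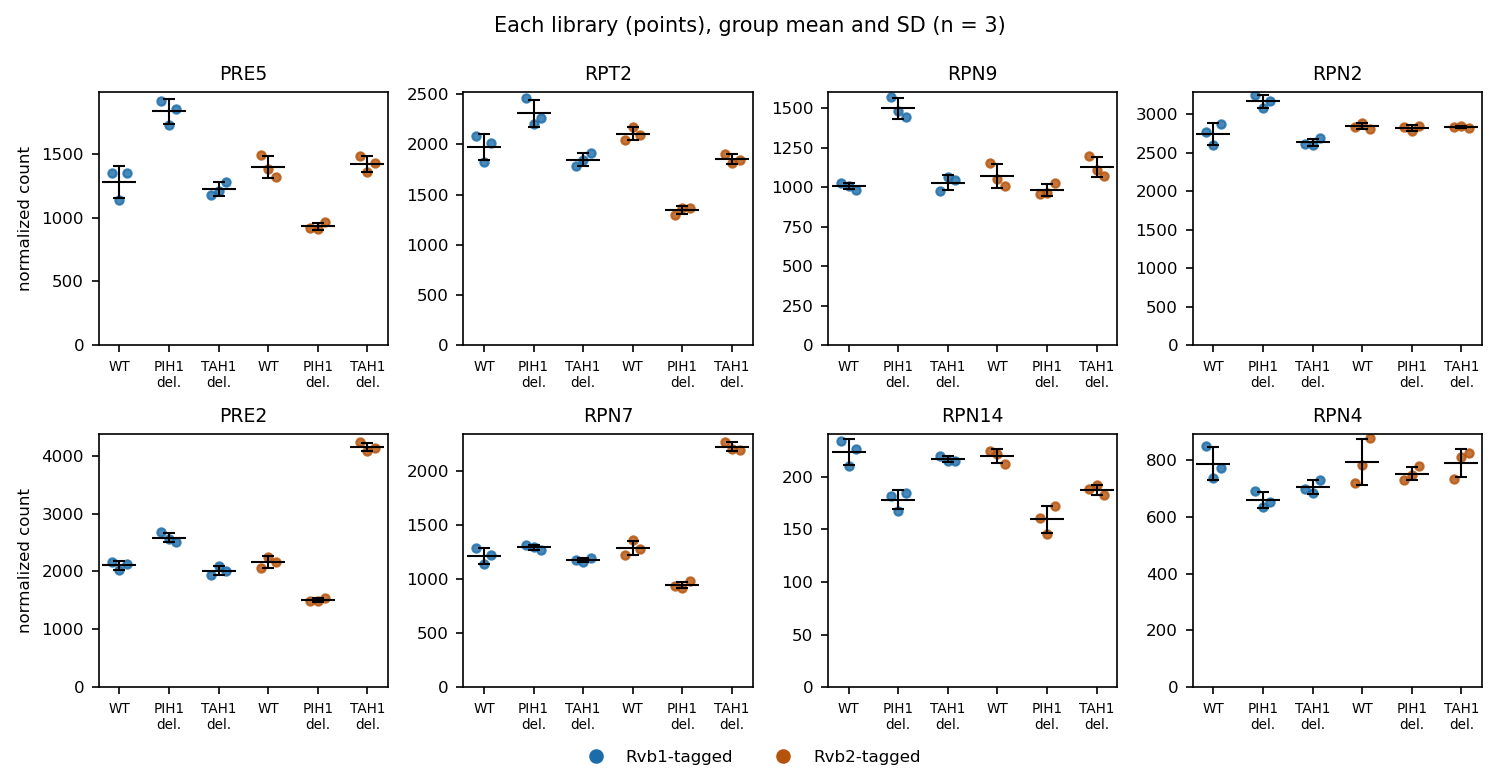
Normalized counts of selected members in every library (points), with the group mean and SD (n = 3), by strain. PRE5 is highest in the Rvb1-tagged PIH1 deletion (1728 to 1921) and lowest in the Rvb2-tagged one (910 to 964), while PRE2 and RPN7 are highest in the Rvb2-tagged TAH1 deletion.

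The difference between the backgrounds was tested itself, as the effect of the PIH1 deletion in the Rvb2-tagged strain minus that in the Rvb1-tagged strain. It was below 0 and passed in 33 of the 35 members, all 33 subunit genes, where 24.7% of all tested genes were called lower and 25.7% higher. The 4 groups in this test share no library. The median difference was -0.77 on the log2 scale over the core, -0.57 over the base and -0.54 over the lid, against 0.03 over all genes. PRE5 had a difference of -1.11 ± 0.10 (adjusted p = 6.4e-07), RPT2 one of -0.87 ± 0.08 (adjusted p = 8.5e-07) and PRE2 one of -0.82 ± 0.07 (adjusted p = 4.2e-07). The smallest among the subunits was that of RPN2, at -0.22 ± 0.07 (adjusted p = 0.011).

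RPN14 and RPN4 were the members whose effects were not shown to differ between backgrounds. The difference was -0.14 ± 0.10 for RPN14 (adjusted p = 0.29) and 0.18 ± 0.10 for RPN4 (adjusted p = 0.17). RPN14 was the 1 member that fell in both backgrounds.

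A fall in the Rvb2-tagged strain together with a rise in the Rvb1-tagged strain was uncommon among all genes. It was called in 144 of the tested genes (2.47%), and 27 members were among them: 14 of the core, 7 of the base and 6 of the lid. The members thus make up 18.8% of those 144 genes. By comparison 745 genes (12.8%) rose in both backgrounds, with no member among them, and 730 (12.5%) fell in both, with RPN14 among them. The reverse pair of directions, lower with Rvb1 and higher with Rvb2 tagged, was called in 109 genes (1.87%) and in no member.

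**Figure D4:**
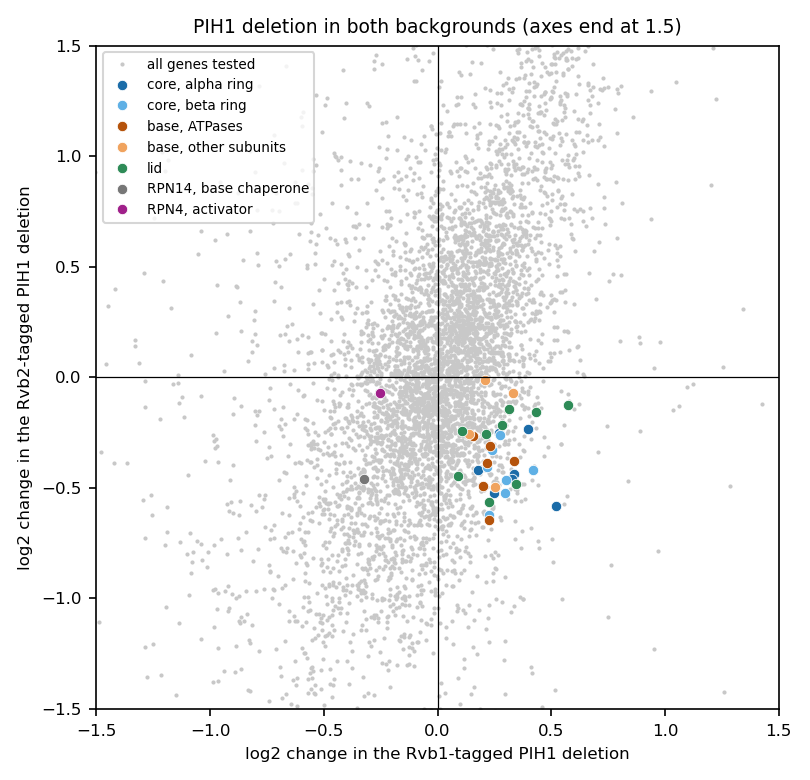
Log2 change in the PIH1 deletion of the Rvb1-tagged strain (horizontal) against that of the Rvb2-tagged strain (vertical), all tested genes in the background and the members by class; the axes end at 1.5. The subunit genes lie to the right of and below the origin, and 27 members are called both higher with Rvb1 tagged and lower with Rvb2 tagged.

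The transcripts of the tagged ATPases also differed between these strains. With Rvb1 tagged, RVB1 was at 975 ± 53.3 normalized counts in the wild type and 657 ± 59.2 in the PIH1 deletion (log2 change -0.57 ± 0.08, adjusted p = 6.6e-05). With Rvb2 tagged, RVB1 went from 903 ± 123 up to 1647 ± 26.9 (0.88 ± 0.08, adjusted p = 9.4e-08). RVB2 went from 916 ± 31.0 up to 1043 ± 65.2 with Rvb1 tagged (0.19 ± 0.07, adjusted p = 0.044) and from 882 ± 68.5 down to 311 ± 12.1 with Rvb2 tagged (0.354 times the wild type on the fitted scale, adjusted p = 3.2e-11). The tagged gene was thus lower in both PIH1 deletions, and it was lower in both TAH1 deletions as well, with log2 changes of -0.96 ± 0.08 for RVB1 with Rvb1 tagged and -0.76 ± 0.07 for RVB2 with Rvb2 tagged. The untagged RVB1 was also higher in the Rvb2-tagged TAH1 deletion, at 1639 ± 54.3 (0.87 ± 0.08, adjusted p = 1.7e-07 in limma's test). The untagged RVB2 was not called in the Rvb1-tagged TAH1 deletion (0.04 ± 0.07, adjusted p = 0.72). RVB2 (YPL235W) is on chromosome XVI, whose genes had a median log2 change of 0.97 in the Rvb2-tagged TAH1 deletion. The part of these transcripts in the proteasome results was not tested.

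The summed level of 6 MATa-specific genes was between 12273 and 17803 normalized counts in all 18 libraries, the mating type of BY4741. In both PIH1 deletions STE2, MFA2 and STE6 were higher than in the wild type, and BAR1 and ASG7 were lower. MFA1 was higher only with Rvb2 tagged. BAR1 was at 1255 to 1355 against 1837 to 2040 with Rvb1 tagged, and at 1229 to 1233 against 2254 to 2492 with Rvb2 tagged. For ASG7 these ranges were 30 to 42 against 95 to 129, and 60 to 67 against 132 to 202. The sum of 4 genes specific to alpha cells was 470 to 551 in the Rvb2-tagged PIH1 deletion and 343 to 357 in its wild type, against 325 to 366 and 342 to 356 in the Rvb1-tagged pair. Most of that sum was SAG1, at 411 to 492 in the Rvb2-tagged PIH1 deletion and 256 to 290 in its wild type. STE3, a receptor gene specific to alpha cells, went the other way, from 27 to 36 down to 4 to 10. MF(ALPHA)1 was at 0 to 2 in that deletion, and MF(ALPHA)2 was at 48 to 73 against 38 to 46 in the wild type. The sum of 5 meiosis genes was 470 to 513 in the Rvb2-tagged PIH1 deletion and 264 to 290 in its wild type, and in the Rvb1-tagged pair it was 193 to 233 in the deletion and 259 to 284 in the wild type. Of these, NDT80 was higher in the Rvb2-tagged PIH1 deletion (264 to 295 against 86 to 96). IME1 (103 to 128 against 68 to 95), SPO11 (55 to 59 against 24 to 35) and SPR3 (18 to 21 against 5 to 13) were also higher. Only SPS4 was lower (15 to 19 against 64 to 80). Their part in the proteasome results was not tested.

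The Rvb1-tagged TAH1 deletion had no called change in the members. In limma's test 0 of the 35 passed in either direction, where 6.28% of all genes were called higher and 4.48% lower. An unadjusted p below 0.05 was found for 3 members, for which no share over all genes is given. Of the 35 estimates, 33 were below 0, with a median of -0.06 against 0.005 over all tested genes. The medians were -0.10 for the core, -0.05 for the base and -0.05 for the lid. RPN4 stood at 699, 686 and 731 normalized counts in the deletion against 851, 737 and 773 in the wild type, without overlap, and its log2 change was -0.16 ± 0.07 (adjusted p = 0.18). The largest estimate was that of SEM1, at -0.19 ± 0.09 (adjusted p = 0.17). Without wild type replicate 2, 6 members fell (PRE10, PRE3, PUP3, RPT2, RPN12 and SEM1), and with library weights 13 did. Under these settings 31.4% and 40.7% of all tested genes were called in either direction, so calls became more frequent in general.

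In the Rvb2-tagged TAH1 deletion PRE2 and RPN7 were higher and 6 members were lower. These 6 were SCL1, PRE10 and PRE1 of the core, RPT2 and RPT6 of the base, and RPN14. In this comparison 23.8% of all tested genes were called higher and 20.6% lower, so neither count stands above the background. The median log2 change over the 33 subunit genes was -0.08, against 0.02 over all genes.

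PRE2 stood at 2057, 2257 and 2163 normalized counts in the Rvb2-tagged wild type and at 4234, 4084 and 4139 in the TAH1 deletion. RPN7 stood at 1227, 1361 and 1279 in the wild type and at 2275, 2207 and 2198 in the deletion. Neither gene reached these levels in any of the other 15 libraries. The log2 changes were 0.94 ± 0.05 for PRE2 (adjusted p = 1.2e-10) and 0.79 ± 0.05 for RPN7 (adjusted p = 2e-09).

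These are the only 2 members on chromosome XVI. PRE2 is at chrXVI:732349-733212 and RPN7 at chrXVI:742454-743743 (sacCer3), and the other 33 members are on other chromosomes. The median log2 change over the 444 tested genes placed on chromosome XVI was 0.97 in this deletion, with quartiles of 0.75 and 1.19. Over 5126 genes of the other chromosomes it was -0.01, and the medians of these 15 chromosomes ran from -0.12 to 0.03. PRE2 ranked at the 47.3 percentile of the chromosome XVI genes and RPN7 at the 28.8 percentile. In the other deletions and between the wild types the median of chromosome XVI was between -0.01 and 0.04. The deposited data are RNA, and whether this strain carries an additional copy of the chromosome was not tested.

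**Figure D5:**
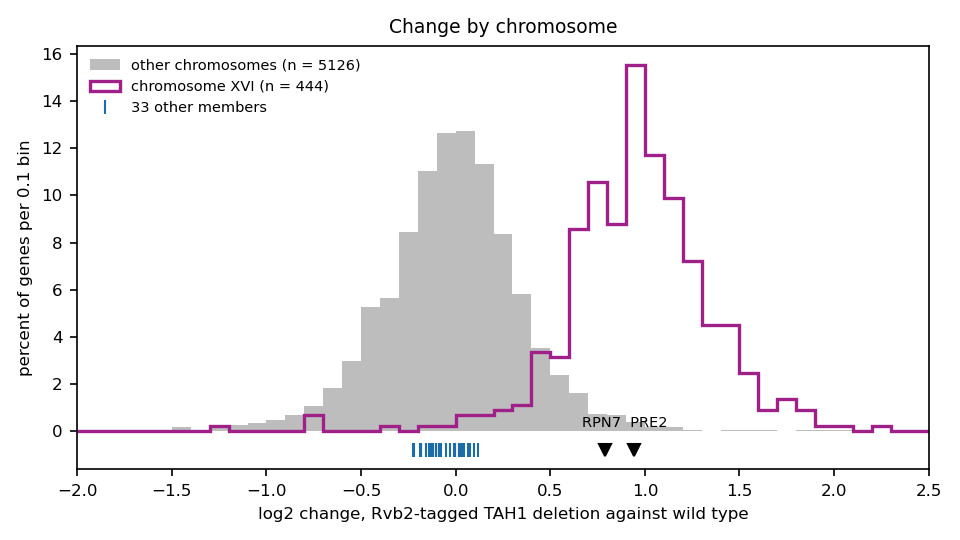
Distribution of the log2 change in the Rvb2-tagged TAH1 deletion against its wild type, as a percent of genes per bin, for genes on chromosome XVI and on the other chromosomes, with the members marked. PRE2 (0.94) and RPN7 (0.79) lie within the distribution of chromosome XVI, whose median is 0.97.

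Away from chromosome XVI the changes were small. PRE10 (YOR362C), an alpha ring subunit, stood at 1872, 1770 and 1942 normalized counts in the wild type and at 1638, 1591 and 1560 in the deletion, without overlap (log2 change -0.22 ± 0.05, adjusted p = 0.0034). RPN14 stood at 225, 222 and 212 in the wild type and at 188, 192 and 183 in the deletion, also without overlap (log2 change -0.23 ± 0.07, adjusted p = 0.019). SCL1 (YGL011C), another alpha ring subunit, stood at 1833, 1722 and 1696 in the wild type and at 1636, 1422 and 1550 in the deletion, where the groups again did not overlap (log2 change -0.19 ± 0.06, adjusted p = 0.018). RPN4 stood at 734, 812 and 826 in the deletion, within the wild type range of 720 to 879, with a log2 change of -0.00 ± 0.07 (adjusted p = 0.97).

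The number that fell depended on the libraries and the scaling, from 3 members without wild type replicate 2, deletion replicate 2 or deletion replicate 3 to 16 after quantile normalization. After quantile normalization 46.6% of all tested genes were called in either direction, and without these libraries 38.2%, 38.9% and 39.1%. The SCL1 call did not hold without wild type replicate 1 or deletion replicate 2, and that of RPN14 did not hold without wild type replicate 2 or deletion replicate 3.

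The effect of the TAH1 deletion differed between the backgrounds in PRE2 and RPN7, by 1.01 ± 0.07 (adjusted p = 1.3e-08) and 0.83 ± 0.08 (adjusted p = 2.3e-07) on the log2 scale, higher with Rvb2 tagged. No other member passed, where 13% of all tested genes were called higher and 11.5% lower. The chromosome XVI genes as a whole had a median difference of 0.97.

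The wild types themselves were set against each other, since each is the baseline of 2 deletions. No member passed in limma's test, where 0.0858% of all genes were called higher and 0.12% lower in the Rvb2-tagged strain. Of the 35 estimates 34 were above 0, with a median of 0.11 against -0.003 over all tested genes. An unadjusted p below 0.05 was found for 9, for which no share over all genes is given. The largest was that of PRE10, at 0.20 ± 0.05 (adjusted p = 0.091). For 12 members every Rvb2-tagged wild type library lay above every Rvb1-tagged one, where 10.9% of all genes did so.

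The 2 deletions of a background were also compared directly; these comparisons share deletion libraries with those above. With Rvb1 tagged, 32 members were higher in the PIH1 than in the TAH1 deletion and RPN14 was lower, where 12% and 14.5% of all genes were called. With Rvb2 tagged, 28 members were lower in the PIH1 than in the TAH1 deletion and none higher, where 33.6% and 28.7% of all genes were called. The largest differences were those of the chromosome XVI genes, at -1.47 ± 0.05 for PRE2 (adjusted p = 6.8e-13) and -1.24 ± 0.05 for RPN7 (adjusted p = 8.9e-12).

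The changes were also read by promoter motif. Of the 27 members with GGTGGCAAA, 25 rose in the Rvb1-tagged PIH1 deletion (median log2 change 0.25), where 19.2% of all tested genes did, and 25 fell in the Rvb2-tagged one (median -0.39), where 34.4% did. Of the 3 with GGTGGCGAA, 2 rose in the first and 2 fell in the second, too few to set against these shares. PRE5, PUP1 and RPN8, whose windows hold AGTGGCAAA, rose in the first and fell in the second, but that motif was chosen after their windows had been read. RPN14 and RPN4, with none of the motifs, were the 2 members lower in the first. In the second RPN14 fell like the members with a motif, and RPN4 did not pass.

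Outside the proteasome, genes with the element had counts in the Rvb1-tagged PIH1 deletion near those of all genes. Of the 45 other genes with GGTGGCAAA, 7 share the site with a member as divergent neighbours, and 43 were tested. In the Rvb1-tagged PIH1 deletion 8 of the 43 rose and 8 fell (median 0.02), where 19.2% and 18.7% of all genes did. In the Rvb2-tagged one 11 rose and 19 fell (median -0.15), where 35.2% and 34.4% did. PDI1, a protein disulfide isomerase of the endoplasmic reticulum, fell in both, by 0.40 and 0.77 on the log2 scale. The same held for LSB3, an actin patch protein, which fell by 0.49 and 1.03.

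Genes that assemble or bind the particle were read next, from a list of 15. In the Rvb1-tagged PIH1 deletion 4 rose and 1 fell (median 0.04), where 19.2% and 18.7% of all genes did, so that the rises were near the background. UMP1, the chaperone that is digested when the core matures, rose from 641 ± 25.4 to 953 ± 44.1 normalized counts (log2 change 0.57 ± 0.09, adjusted p = 8.8e-05), and the alpha ring chaperone gene PBA1 rose by 0.46 ± 0.07. The base chaperone gene HSM3 fell by 0.37 on the log2 scale (SE 0.10). In the Rvb2-tagged PIH1 deletion 1 rose and 9 fell (median -0.30), where 35.2% and 34.4% of all genes did. The base chaperone genes NAS6 and TMA17 fell by 1.01 and 1.30 on the log2 scale and the ubiquitin ligase gene HUL5 by 0.80. BLM10, which caps the core in place of the regulatory particle, was the 1 that rose, from 741 to 1174 normalized counts (log2 change 0.66 ± 0.06, adjusted p = 5.4e-08). In the TAH1 deletions 0 rose and 1 fell with Rvb1 tagged (6.28% and 4.48% of all genes), and 3 rose and 3 fell with Rvb2 tagged (23.8% and 20.6% of all genes), again near the background. POC4 on chromosome XVI was among those higher in the latter, with a log2 change of 0.69 ± 0.13.

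Of 21 genes of the ubiquitin system and its shuttles, 7 rose and none fell in the Rvb1-tagged PIH1 deletion (median 0.16), where 19.2% and 18.7% of all genes did. In the Rvb2-tagged one none rose and 15 fell (median -0.33), where 35.2% and 34.4% of all genes did. UBC4, a ubiquitin-conjugating enzyme, rose by 0.41 ± 0.06 on the log2 scale in the first (adjusted p = 0.00012) and fell from 3154 to 1962 normalized counts in the second (log2 change -0.68 ± 0.06, adjusted p = 7.4e-08). SHP1, a cofactor of Cdc48, changed by 0.26 and -0.87 on the log2 scale. The polyubiquitin gene UBI4 fell by 1.25 in the second (SE 0.16, adjusted p = 1.8e-06). The effect differed between the backgrounds in 16 of the 21, each lower with Rvb2 tagged, where 24.7% of all genes were called lower. In the TAH1 deletions none rose and 1 fell with Rvb1 tagged (6.28% and 4.48% of all genes), and 1 rose and 4 fell with Rvb2 tagged (23.8% and 20.6%), at or below the background.

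Of 6 genes that act on RPN4, 3 rose and 1 fell in the Rvb1-tagged PIH1 deletion, where 19.2% and 18.7% of all genes did, and 4 rose and none fell in the Rvb2-tagged one (median 0.33), where 35.2% and 34.4% did. With 6 genes these counts are given as a description. UBR2, a subunit of the ubiquitin ligase that marks Rpn4 for degradation, rose by 0.38 ± 0.14 on the log2 scale (adjusted p = 0.038) in the first and by 0.82 ± 0.14 in the second. HSF1, the heat shock activator that can also drive RPN4, rose by 0.41 ± 0.06 in the second. PDR3, a drug-resistance activator with the same property, changed by -0.39 ± 0.07 (adjusted p = 0.00054) in the first and 0.43 ± 0.07 in the second.

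Of 7 drug-efflux genes controlled by Pdr1 and Pdr3, 6 fell and none rose in the Rvb1-tagged PIH1 deletion (median -1.01). There 18.7% of all genes fell and 19.2% rose. In the Rvb2-tagged PIH1 deletion 5 fell and 2 rose (median -0.35), where 34.4% of all genes fell and 35.2% rose. In the TAH1 deletions 5 fell with Rvb1 tagged (median -0.39) and 6 with Rvb2 tagged (median -0.49), where 4.48% and 20.6% of all genes fell. With 7 genes these counts too are given as a description. PDR5, which encodes the main pump, went from 13225 to 2826 normalized counts in the Rvb1-tagged PIH1 deletion (log2 change -2.22 ± 0.08, adjusted p = 3.2e-12). Its log2 change was -1.95 in the Rvb2-tagged PIH1 deletion, and -2.05 and -1.75 in the TAH1 deletions with Rvb1 and Rvb2 tagged. PDR5 therefore fell in all 4 deletions, while the subunit genes rose in 1 of them, fell in another and had few or no called changes in the remaining pair.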

How the data were processed

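Per the submitters' processing notes, the build was sacCer3 and the tools included DESeq2 1.6.3 and TopHat2 2.0.3; the role of each tool, and the annotation, were not stated. The deposited tables hold normalized read counts rounded to whole numbers, used as a signal on a linear scale, and FPKM values rounded to whole numbers by the authors, used as a score per gene length. Raw counts could not be recovered, so no count model was used and counting intervals are not given. Values were taken as log2(value + 1); a fold change on this scale understates changes of low genes, but the lowest member mean was 198. Features with a mean of at least 10 (5825 of 7126) entered 1 limma fit (R 4.3.3, limma 3.58.1) of 6 group means with an intensity trend, with Benjamini-Hochberg adjustment over all of them for each of 9 contrasts and a threshold of 0.05. The fit was tested on simulated data. Alternatives covered pseudocount, filter, scaling, weights, libraries and the FPKM table. Nothing says how independent the cultures of a strain were, so the p-values reflect library-to-library spread, which may be technical. No member overlaps another annotated gene. Promoter windows were cut from the RefSeq genome. Members and gene lists were chosen with earlier results of these data known. The members given in every library were RPN4, those on chromosome XVI, and the 3 largest called rises and falls of each deletion, with exceptions to a class; list genes were those with the smallest adjusted p.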

Additional observations from a re-analysis of the deposited data

Results flagged for a closer look

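The effect of the PIH1 deletion differed between the tagged backgrounds in 33 members, each lower with Rvb2 tagged, by limma's test of the difference. The members with the smallest adjusted p were PRE2 (-0.82 on the log2 scale), PRE5 (-1.11) and RPT2 (-0.87). The effect of the TAH1 deletion differed in 2 members, PRE2 (1.01) and RPN7 (0.83), both higher with Rvb2 tagged and both on chromosome XVI.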

How the results depend on the processing

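No class median of the PIH1 deletions changed sign under the scalings tried or in the FPKM table, but counts of members moved. In the Rvb1-tagged PIH1 deletion, 19 members rose after quantile normalization, and 18 rose and 1 fell with only the groups compared in the fit. These fits called 35.6% and 21.9% of all tested genes in either direction. Leaving out 1 library at a time gave 24 to 29 higher and 1 to 2 lower. Of all tested genes, 27.4% to 46.5% were then called in either direction. In the Rvb2-tagged PIH1 deletion leaving out libraries gave 28 to 31 lower, where 64.9% to 68.1% of all genes were called. In the difference between backgrounds it gave 32 to 33 lower and 0 to 1 higher, where 45.4% to 51% were called. Library weights gave 1 higher there, where 62.4% were called. In the Rvb1-tagged TAH1 deletion 2 members fell after quantile normalization, 13 with library weights, and 0 to 6 without 1 library. Quantile normalization called 10.1% of all tested genes here, and leaving out libraries 5.08% to 31.4%. In the Rvb2-tagged TAH1 deletion 16 fell after quantile normalization, 4 rose and 15 fell with library weights, and leaving out libraries gave 2 to 3 higher and 3 to 8 lower. Quantile normalization called 46.6% of all tested genes in this deletion, and leaving out libraries 36% to 41.8%. The difference of this deletion from the Rvb1-tagged one had 6 higher with library weights and 2 to 3 without 1 library. Leaving out libraries called 21.7% to 30.1% of all tested genes in that difference. Between the wild types 9 were higher with library weights and 0 to 1 without 1 library. Leaving out libraries called 0.0172% to 8.1% of all tested genes between the wild types. Library weights raised calls in general. Of all tested genes they called 40.7% in the Rvb1-tagged and 65.9% in the Rvb2-tagged TAH1 deletion, 43% in that difference and 19.8% between the wild types. Quantile normalization moved the median log2 change in the Rvb1-tagged PIH1 deletion to 0.20 for the core and 0.20 for the lid. In the Rvb1-tagged TAH1 deletion it moved it to -0.17 for the core, -0.13 for the base and -0.14 for the lid, and in the Rvb2-tagged one to -0.089, -0.16 and -0.15. The causes were not tested; the weights' iteration stopped before its tolerance. GGTGGCGAA and AGTGGCAAA each gave 3 members.

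Single genes turned sign where the estimate was near 0. RPN7 in the Rvb1-tagged PIH1 deletion was -0.028 after quantile normalization. RPN4 in the Rvb2-tagged PIH1 deletion was 0.0021 without wild type replicate 3. RPN4 in the Rvb2-tagged TAH1 deletion was 0.029 with scaling factors from genes outside chromosome XVI, a setting chosen after seeing the data, 0.032 with library weights, and between -0.072 and 0.072 without 1 library at a time, above 0 without wild type replicate 3 or deletion replicate 1. Replicate numbers showed no general pairing of the libraries: the deviations of 8 of 45 same-numbered pairs correlated above 0.1, from -0.38 to 0.41. With 3 libraries per group these correlations cannot exclude a shared batch or a pairing of some groups. A fit with the replicate number as a block changed no member's call, with 31 lower in the Rvb2-tagged PIH1 deletion. That fit called 69.2% of all tested genes in either direction in this deletion. Rounded, already normalized values limit the precision of low genes, and depth in reads is unknown.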
